A study of Homo sapiens with 14 samples.

Results

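Chromatin remodeller, deacetylase and acetyltransferase genes were followed through 14 CUT&Tag peak lists of Jurkat cells. The set was a fixed list of 46 genes out of 19974 protein-coding genes, chosen by name as partners and relatives of the complexes that SATB1 recruits; the choice used no threshold on these values, though it was made with earlier results of these data known. For each gene, peaks within 2 kb of either annotated gene end (GRCh38, RefSeq) were read from every list, with the within-list percentile of the peak's maximum signal, where 100 is the highest peak of that list.

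In CUT&Tag an antibody guides the Tn5 transposase to a protein or mark, and DNA next to it is cut and tagged. Jurkat is an established human line from a T cell acute lymphoblastic leukaemia. Cells were infected with a lentiviral vector for knockdown of SATB1 by shRNA (shSATB1) or with its control (shCtrl). SATB1 was mapped in shCtrl cells (2 libraries), H3K27ac in shCtrl and shSATB1 cells (2 each), CTCF in shCtrl and shSATB1 cells (3 each), and Matrin 3 in Jurkat cells whose label names no shRNA (2). The number of distinct shRNAs is not given in the sources used here, and nothing says that replicates were separate cultures, so any p-value measures the spread between libraries, which may be technical.

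SATB1 is a nuclear protein of T cells that binds A/T-rich DNA and folds chromatin. It is known to bring to its sites the deacetylase HDAC1 with the NuRD complex, the ATP-driven remodellers of the ISWI family, and acetyltransferases. Remodellers slide, evict or exchange nucleosomes with the energy of ATP. Deacetylases remove acetyl groups from histones, and EP300, CREBBP, KAT2A and KAT2B add them, H3K27ac being the mark that EP300 and CREBBP write at active promoters and enhancers. The values below concern the genes that encode these proteins, not where the proteins bind.

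The lists differed in length, which bears on every comparison between arms. CTCF lists held 31141 to 32540 peaks in shCtrl and 14695 to 20284 in shSATB1, and covered 90.1 to 102 Mb against 24.5 to 40.8 Mb. The H3K27ac lists were closer in number, with 17863 and 17141 peaks under shCtrl against 17925 and 15972 under shSATB1, but covered 53.8 and 52.0 Mb against 46.5 and 41.0 Mb. The SATB1 lists held 15210 and 14726 peaks and shared 6001 exact peak starts, 40.8% of the shorter list; the next pair of lists shared 0.890%. They were therefore counted as 1 sample. The Matrin 3 lists held 24566 and 2105 peaks. Read depth was not used here and is unknown, and peak lists do not check the knockdown. H3K27ac lay at an end of 11 of 12 T cell marker genes in all 4 libraries (CD5 was the exception), at 1 of 6 B cell genes (CD79A), at 0 of 6 myeloid genes and at 1 of 6 epithelial and stromal genes (VIM).

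The promoters of 6 members are shown because the results turn on them. RBBP4 carried one of the highest SATB1 peaks of the set and SMARCD1 the highest CTCF peaks; CTCF was called at SMARCE1 and BRD9 and H3K27ac at MTA3 in shCtrl only, and H3K27ac at EP400 in shSATB1 only. Sequences are from the RefSeq table of GRCh38.p14, from 250 bases before to 50 after the annotated start, on the strand of the gene. Capitals mark matches on either strand to the GC box GGGCGG, the ETS motif CCGGAAG, the CCAAT box CCAAT, the YY1 motif AAGATGGC, and AGGGGGC or AGGTGGC, which are forms of the core of the CTCF motif.
RBBP4: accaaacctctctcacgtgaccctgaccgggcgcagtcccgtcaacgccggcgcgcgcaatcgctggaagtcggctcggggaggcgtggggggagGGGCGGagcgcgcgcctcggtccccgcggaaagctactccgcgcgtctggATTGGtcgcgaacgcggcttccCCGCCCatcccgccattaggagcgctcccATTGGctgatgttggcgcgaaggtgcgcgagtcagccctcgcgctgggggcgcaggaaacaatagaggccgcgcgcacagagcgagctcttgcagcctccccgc
SMARCD1: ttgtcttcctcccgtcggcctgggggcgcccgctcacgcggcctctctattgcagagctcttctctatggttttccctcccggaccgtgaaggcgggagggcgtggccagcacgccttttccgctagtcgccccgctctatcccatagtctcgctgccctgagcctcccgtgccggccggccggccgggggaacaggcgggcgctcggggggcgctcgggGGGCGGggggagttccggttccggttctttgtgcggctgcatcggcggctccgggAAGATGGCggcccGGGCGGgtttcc
SMARCE1: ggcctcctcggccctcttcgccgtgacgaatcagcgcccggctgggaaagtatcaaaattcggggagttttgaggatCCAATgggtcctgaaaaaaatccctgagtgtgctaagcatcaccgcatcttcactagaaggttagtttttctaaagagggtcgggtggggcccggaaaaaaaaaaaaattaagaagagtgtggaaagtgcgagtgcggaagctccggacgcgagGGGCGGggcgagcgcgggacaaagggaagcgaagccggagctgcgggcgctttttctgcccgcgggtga
BRD9: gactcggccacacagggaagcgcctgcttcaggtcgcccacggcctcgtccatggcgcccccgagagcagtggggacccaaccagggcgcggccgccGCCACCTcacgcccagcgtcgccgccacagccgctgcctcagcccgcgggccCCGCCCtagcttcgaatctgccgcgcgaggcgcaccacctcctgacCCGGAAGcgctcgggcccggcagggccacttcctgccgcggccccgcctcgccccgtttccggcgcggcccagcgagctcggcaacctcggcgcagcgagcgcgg
MTA3: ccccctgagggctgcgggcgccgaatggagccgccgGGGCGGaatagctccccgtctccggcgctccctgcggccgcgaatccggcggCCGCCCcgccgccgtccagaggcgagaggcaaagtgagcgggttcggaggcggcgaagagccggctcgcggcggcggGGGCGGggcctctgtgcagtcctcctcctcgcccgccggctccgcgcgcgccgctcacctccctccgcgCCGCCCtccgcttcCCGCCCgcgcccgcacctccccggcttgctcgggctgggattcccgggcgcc
EP400: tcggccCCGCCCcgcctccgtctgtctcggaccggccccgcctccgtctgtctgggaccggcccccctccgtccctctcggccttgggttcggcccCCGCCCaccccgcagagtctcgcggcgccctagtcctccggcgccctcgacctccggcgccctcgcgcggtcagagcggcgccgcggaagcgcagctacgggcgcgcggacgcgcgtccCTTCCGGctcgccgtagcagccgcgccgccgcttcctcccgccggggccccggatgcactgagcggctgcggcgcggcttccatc
RBBP4 lies on the plus strand at chr1:32650958-32651257, SMARCD1 on the plus strand at chr12:50085092-50085391 and SMARCE1 on the minus strand at chr17:40647769-40648068. BRD9 lies on the minus strand at chr5:892752-893051, MTA3 on the plus strand at chr2:42493860-42494159 and EP400 on the plus strand at chr12:131949692-131949991. Their GC content was 70.3%, 71.3%, 56.3%, 77.0%, 79.7% and 79.0% in the order printed.

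Of the 46 members, 40 had an entry in the promoter table. Their median GC content was 70.3%, against 62.7% over 15812 protein-coding genes. The GC box stood in 32 of 40 (80.0%, against 58.3% of all promoters) and AGGGGGC in 14 (35.0% against 17.7%). AGGTGGC stood in 5 (12.5% against 7.41%), the ETS motif in 6 (15% against 14.1%), the CCAAT box in 12 (30.0% against 36.4%) and the YY1 motif in 3 (7.5% against 3.86%). The A/T-rich element AATATAT stood in 0 of 40, against 1.57% of all promoters. The single AGGTGGC match of the printed set lay in BRD9, 153 to 147 bases before its start on the opposite strand, and the YY1 match lay in SMARCD1, 25 to 32 bases after its start. None of these matches was tested as a site.

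SATB1 lay at an end of 23 of the 46 members in both lists, where 24.5% of all genes had it. By role, these were 6 of 7 CHD remodellers, 1 of 3 ISWI and NURF genes, 5 of 14 SWI/SNF genes, 3 of 6 deacetylases, 5 of 9 NuRD subunits, 2 of 4 acetyltransferases and 1 of 3 genes of the INO80 family. Members were also more often acetylated than genes at large: H3K27ac lay at 36 of 46 in both shCtrl libraries, against 38.8% of all genes. Among genes with that H3K27ac, 22 of 36 members had SATB1, against 57.5% of all such genes, so within acetylated genes the members' share was near the background. Among genes with no H3K27ac in either shCtrl library, 0 of 9 members had SATB1, against 2.29%.

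The median of the mean percentile was 71.4 over the 23 members with SATB1 and 60.1 over all 4900 genes with it. CHD4, the main ATPase of NuRD, came at the top with percentiles of 97.8 and 97.0 in the SATB1 lists. RBBP4, a histone chaperone shared by NuRD and other complexes, followed at 95.1 and 93.4. Both genes stood above every other member in both lists. ARID2, the DNA-binding subunit of the PBAF form of SWI/SNF, had 85.6 and 85.4. CHD8, a remodeller known for binding CTCF, had 81.6 and 87.4. MTA2, a NuRD scaffold, had 84.4 and 84.2 in its 3′ end window, and 81.6 and 73.8 at its 5′ end. CHD3, the alternative ATPase of NuRD, had 85.6 and 81.4. The maximum of that peak lay 2773 and 2773.5 bases after the CHD3 start, beyond the 2 kb window that the peak touched. The means of these 4 genes lay within the difference between the lists of CHD8, so they are not ordered by these values. SMARCA2, an ATPase of SWI/SNF, had 83.1 and 73.8, and SMARCA5, the ISWI ATPase, had 74.0 and 76.1. Windows of several of these genes also hold ends of other genes, so their peaks cannot be assigned to a single gene. The neighbours are NOP2 at CHD4, ZBTB8OS at RBBP4, SUPT16H at CHD8, TUT1 and EML3 at MTA2, and NAA38 and RNF227 at CHD3.

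The next members by mean percentile were the NuRD zinc finger subunits GATAD2B (73.9) and GATAD2A (73.5), then HDAC4 (71.4), EP300 (71.4) and CHD2 (70.0). KAT2A, SRCAP, SMARCD2, SMARCC1, HDAC1, CHD1 and MBD2 ran from 63.7 down to 37.6. HDAC3, SMARCD1 and CHD9 were lowest at 28.2, 25.3 and 3.89. At KAT2A and HDAC3 these SATB1 peaks lay in the 3′ end window, with none in the 5′ end window. Both genes share their windows with ends of other genes. ARID1A, PBRM1 and HDAC2 had a SATB1 peak in 1 of the lists only, at percentiles of 13.0, 7.94 and 13.0. The other 20 members had none at an end in either list.

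SATB1 peaks stood at 5′ rather than 3′ ends. Of the 40 members whose strand the promoter table gives, 19 had SATB1 at the 5′ end and 4 at the 3′ end, against 23.9% and 4.71% of all genes. In the lists, the maximum of the member's peak lay a median of 169 and 151 bases before the annotated start. CTCF stood at 38 5′ ends and 11 3′ ends in every shCtrl library (55.1% and 20% of all genes), and H3K27ac at 32 and 5 in both (38.4% and 8.53%). Matrin 3, an RNA- and DNA-binding protein of the nuclear matrix, stood at 32 and 4 in its longer list (49.1% and 9.07%). CTCF maxima lay a median of 92.3 to 129 bases before the start in the shCtrl libraries.

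**Figure D1:**
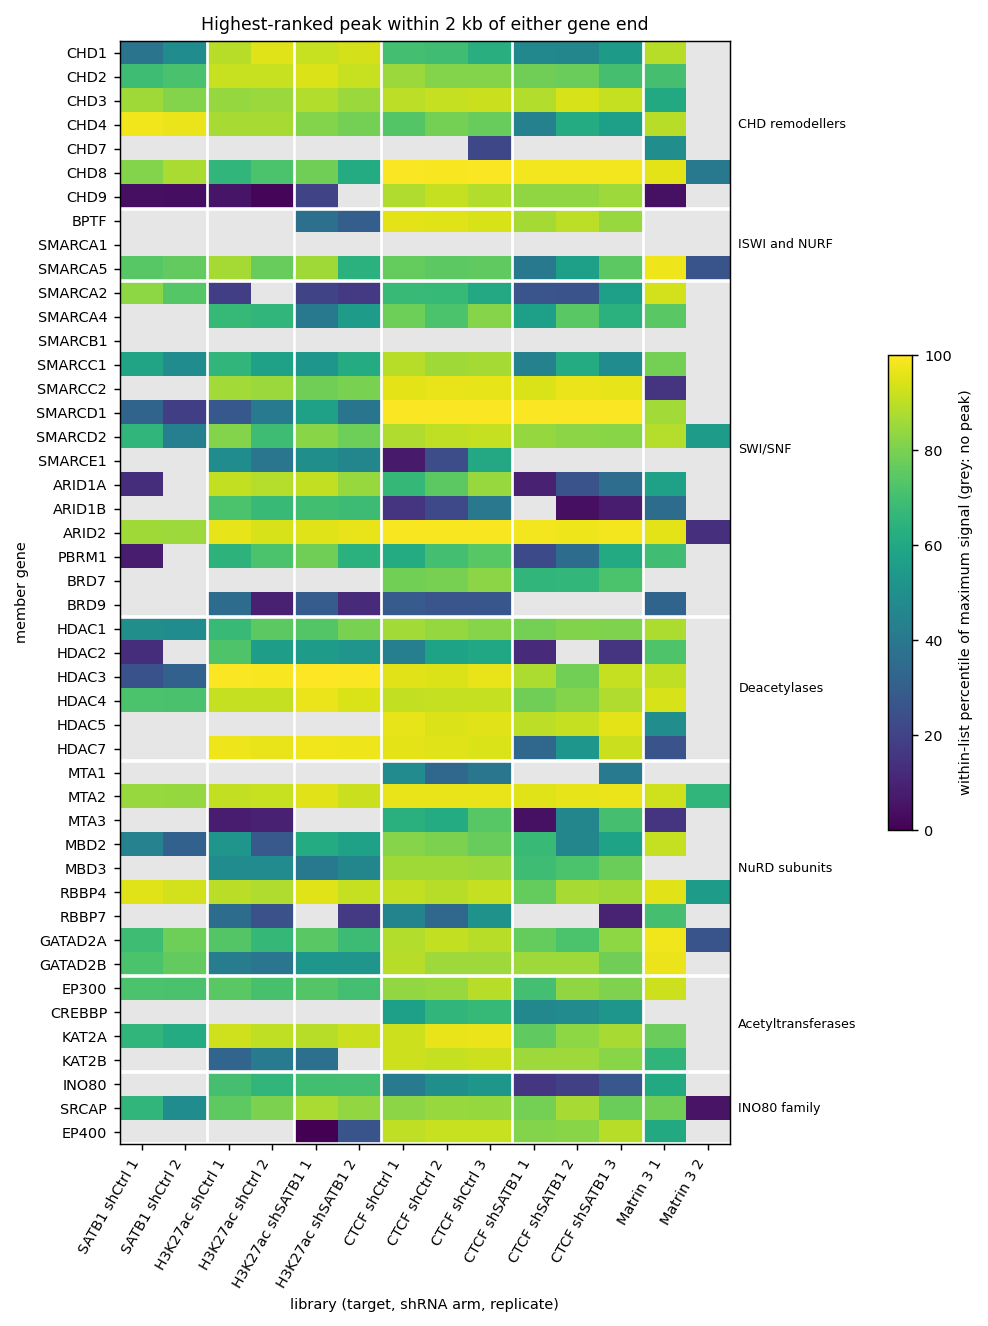
Heat map of the within-list percentile of the highest peak within 2 kb of either gene end, for 46 members in rows, grouped by role, and 14 libraries in columns; grey marks no peak. CTCF columns are nearly full in shCtrl (43, 43 and 44 members), SMARCA1 and SMARCB1 are grey throughout, and CHD4 and RBBP4 are brightest for SATB1.

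Of the 23 members with SATB1, 22 also had CTCF in every shCtrl library, H3K27ac in both and Matrin 3 in the longer list. Over all genes with SATB1 that share was 88.3%, so the members were near the background. The exception, SMARCA2, had H3K27ac in 1 of 2 shCtrl libraries, at a percentile of 18.7. CTCF lay at 43 of 46 members in every shCtrl library (58% of all genes): 6 of 7 CHD remodellers, 2 of 3 ISWI and NURF genes, 13 of 14 SWI/SNF genes, and every deacetylase, NuRD, acetyltransferase and INO80 family member. H3K27ac in both shCtrl libraries covered 6 of 7, 1 of 3, 11 of 14, 5 of 6, 8 of 9, 3 of 4 and 2 of 3 in the same order of roles. Matrin 3 lay at 38 in its longer list (49.3% of all genes) and at 8 in both (7.85%), which were CHD8, SMARCA5, SMARCD2, ARID2, MTA2, RBBP4, GATAD2A and SRCAP. All 8 also had SATB1 in both lists, as did 90.4% of all genes with Matrin 3 in both. No control library for background cutting was used here, so signal common to open chromatin cannot be told apart from binding of each target.

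The highest CTCF peaks belonged to SMARCD1, a core subunit of SWI/SNF, at 99.4, 99.5 and 99.4 in shCtrl and 99.3, 99.5 and 99.3 in shSATB1. CHD8 had 99.3, 99.2 and 99.2 in shCtrl and 98.4, 98.1 and 98.2 in shSATB1. ARID2 had 99.1, 99.0 and 99.1 in shCtrl and 98.3, 97.5 and 98.1 in shSATB1. These 3 genes stayed in the top part of the list in all 6 libraries. Percentiles come from lists of unequal length, so they cannot show whether a peak changed between arms. SMARCD1 shares its windows with an end of ASIC1 and CHD8 with one of SUPT16H, so peaks in those windows cannot be assigned to 1 gene. An end of another protein-coding gene lay in the windows of 20 members in all.

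SMARCA1, the second ISWI ATPase, and SMARCB1, a core SWI/SNF subunit, had no peak at an end in any of the 14 lists, nor anywhere over the gene. Around SMARCA1, on the X chromosome, the nearest peaks of any list lay 663 kb to the lower and 77.4 kb to the higher side. Around SMARCB1 the nearest peak lay 33.3 kb away, and the peak-free stretch of 284 kb held 11 protein-coding genes. A stretch of that kind touches many genes at a time, and whether reads in it were filtered or absent was not tested. CHD7 had CTCF in 1 of 3 shCtrl libraries, at 21.9, and Matrin 3 in the longer list, at 49. HDAC5, BRD7, CREBBP, MTA1 and CHD7 had no H3K27ac at an end in any of the 4 libraries. Of these, HDAC5 had high CTCF in all 6 libraries, at 90.0 to 96.1.

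After SATB1 knockdown, CTCF remained called at most members. The count of members with CTCF was 43, 43 and 44 in shCtrl and 38, 38 and 41 in shSATB1 (43.3 ± 0.577 against 39.0 ± 1.73, SD, n = 3 each). The arms did not overlap. Over all genes the share was 60.7% ± 0.781 in shCtrl and 44.0% ± 3.96 in shSATB1 (SD, n = 3 each). CTCF was lost, meaning called in every shCtrl library and in none of shSATB1, at 2 of 43 members, SMARCE1 and BRD9, against 14.8% of such genes. It was gained, the reverse, at 0 of 2 members, against 0% of 7364 genes without CTCF in shCtrl. Lost and gained are calls by agreement of the libraries, with no test behind them. In part of the shSATB1 libraries CTCF was called at ARID1B and HDAC2 (2 of 3) and at MTA1 and RBBP7 (1 of 3). Without shSATB1 replicate 3, MTA1 and RBBP7 joined SMARCE1 and BRD9 and the count of losses was 4. Leaving a library out relaxes the rule of agreement, so such counts, here and below, can only stay or rise. They are given without the share of all genes, so they show nothing particular to the members.

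**Figure D2:**
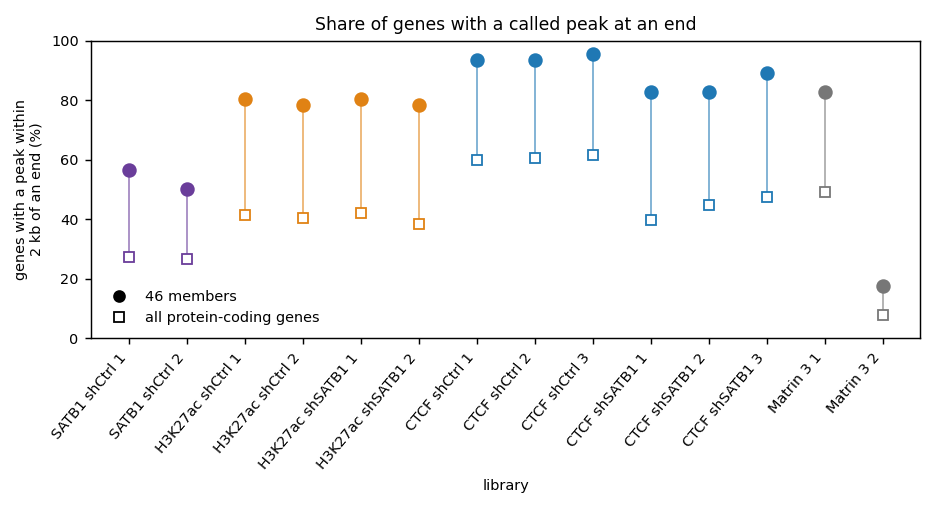
Percent of the 46 members (filled circles) and of all 19974 protein-coding genes (open squares) with a called peak within 2 kb of an end, for each of 14 libraries on the x axis, with no error bars since each point is 1 library. Members lie above all genes in every library, and the CTCF points of shSATB1 lie below those of shCtrl for both sets.

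SMARCE1 encodes the HMG-box subunit of SWI/SNF. CTCF peaks covered 2466, 2188 and 4154 bases of its end windows in shCtrl and 0, 0 and 0 in shSATB1. The peaks at its 5′ end, over the promoter printed above, ranked at 7.2, 23.6 and 13.8, low in each shCtrl list; replicate 3 had a further peak at the 3′ end, at 60.4. BRD9, the bromodomain subunit of the non-canonical form of SWI/SNF, had 2644, 3017 and 3095 bases in shCtrl and 0, 0 and 0 in shSATB1, at percentiles of 28.7, 26.4 and 26.7 in shCtrl. For both genes the arms did not overlap, and the two-sided exact permutation test over libraries gave p = 0.1, the smallest that 3 against 3 allows (0.136 adjusted over 12618 genes by Benjamini-Hochberg). Neither gene had SATB1 at an end or over its body. H3K27ac stayed at both in all 4 libraries: it covered 2398 and 1979 bases of SMARCE1 in shCtrl and 2046 and 2237 in shSATB1, and 1490 and 1254 bases of BRD9 in shCtrl and 1810 and 1491 in shSATB1. BRD9 shares its window with TRIP13 and LOC128966726.

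When the CTCF lists were cut to the 14695 highest peaks each, neither loss was called. Members with CTCF then numbered 36, 37 and 38 in shCtrl and 38, 37 and 38 in shSATB1, so the arms overlapped, while all genes stood at 43.2% to 44.2% against 39.7% to 40.3%. At equal length CTCF was lost at 0 of 36 members (4.06% of such genes) and gained at 1 member, INO80 (0.295% of all genes), the ATPase that gives its complex its name. In the full lists INO80 had CTCF in all 6 libraries, at 41.1, 49.8 and 53.0 in shCtrl and 15.7, 19.1 and 27 in shSATB1. At equal length BRD9 had no CTCF in any library and SMARCE1 had it in shCtrl replicate 3 only. Neither gene then had CTCF in every shCtrl library, so the cut itself kept a loss from being called, whatever shSATB1 showed. The SMARCE1 loss was also not called with a 5 kb window or without the lowest 25% of each list, where the BRD9 loss was.

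All 23 members with SATB1 kept CTCF in all 6 libraries, against 82.8% of genes with SATB1 and with CTCF in every shCtrl library. Of the 20 members that had CTCF in every shCtrl library without SATB1 in both lists, 14 kept it, against 53.3% of such genes. With H3K27ac in both shCtrl libraries as well, the counts were 22 of 22 with SATB1 (83.6% of such genes) and 9 of 14 without (58.5%). The difference between members with and without SATB1 was in the direction seen over all genes and was not tested. Members with SATB1 also had higher CTCF peaks in shCtrl, with a median percentile of 89.3 against 71.9. Which of these goes with the kept calls was not tested.

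The length covered by CTCF peaks was lower in shSATB1 at most members. Over the windows of the 46 members it summed to 163.0 kb ± 8.66 in shCtrl and 97.5 kb ± 16.7 in shSATB1 (SD, n = 3 each). It was lower in every shSATB1 library than in every shCtrl library at 32 of 46 members, against 46.4% of all genes. Among the 37 with CTCF in all 6 libraries it was lower at 27, against 75.9%, so the members' share was near the background. It was higher without overlap at 0 of 37 (0.0264%). In lists of equal length the count lower without overlap was 24 of 46, against 28.7% of all genes. There 36 of 46 members had CTCF in every shCtrl library, against 40.1% of all genes. The share among genes with CTCF is not given at equal length, so no excess of the members was shown. The exact permutation p was 0.1 at each of these members, as at 9260 of 12618 genes tested, and no gene could go lower.

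SMARCD2, a SWI/SNF subunit, had 6530, 8002 and 8002 bases covered in shCtrl and 2201, 2576 and 2268 in shSATB1 (7.51 kb ± 0.850 against 2.35 kb ± 0.200, SD, n = 3 each). The arms lay far apart. For SMARCD2, 8002 bases is the full length of both end windows. Those shCtrl values could not go higher, and their SD may be too low. An end of PSMC5 also lies in these windows. HDAC7, a class IIa deacetylase of thymocytes, had 4953, 4959 and 5862 bases in shCtrl and 1338, 3201 and 2336 in shSATB1. KAT2A, the catalytic subunit of SAGA, had 7244, 6330 and 6225 bases in shCtrl and 4042, 3948 and 4997 in shSATB1. Neither pair of arms overlapped. The windows of HDAC7 also hold an end of SLC48A1, and those of KAT2A hold ends of DHX58 and HSPB9. RBBP4 and ARID2, with high SATB1 peaks, had arms that overlapped: RBBP4 had 1957, 2890 and 2658 bases in shCtrl and 1649, 2599 and 2294 in shSATB1. ARID2 had 2430, 2656 and 2730 bases in shCtrl and 2598, 2371 and 2744 in shSATB1. Besides these 2, CHD9, BPTF, PBRM1, HDAC1, MBD3, GATAD2B, CREBBP and EP400 had CTCF in all 6 libraries and overlapping arms.

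**Figure D3:**
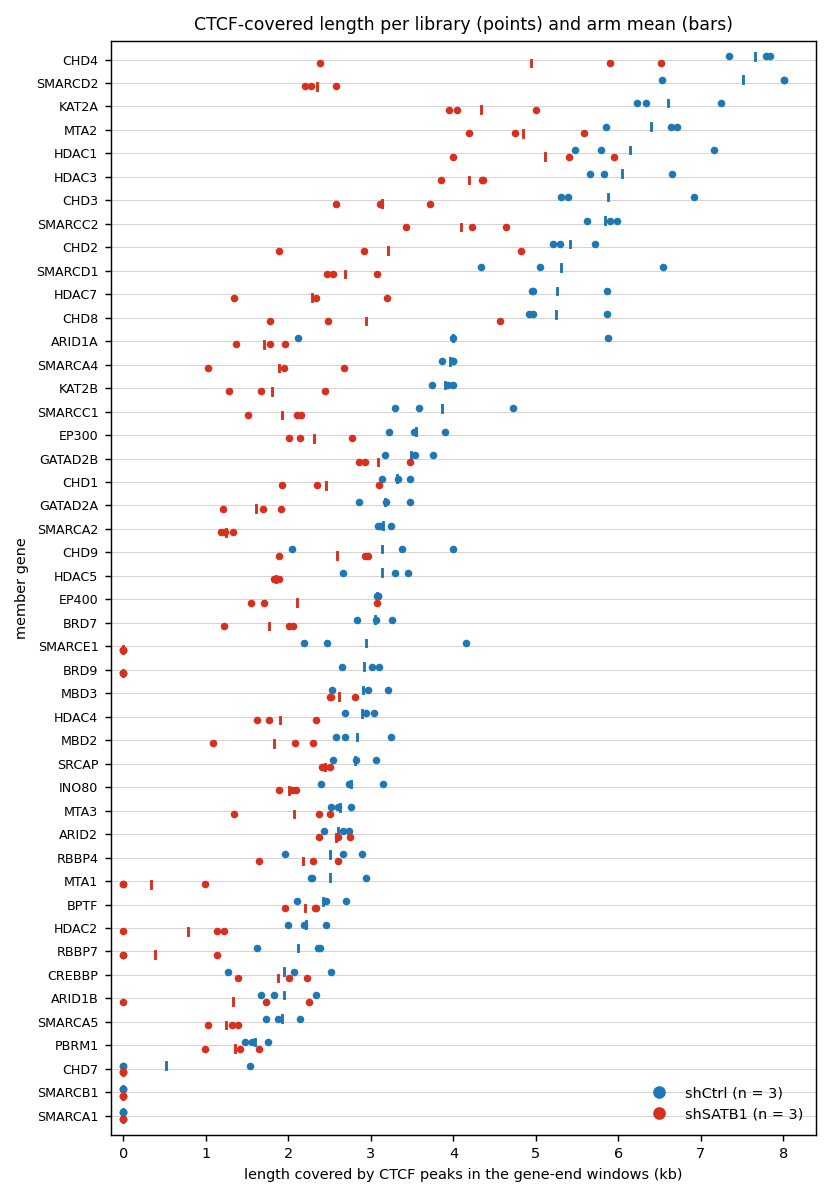
Length covered by CTCF peaks in the end windows of each of 46 members (x axis, kb), as 1 point per library and a bar at the arm mean, shCtrl in blue and shSATB1 in red (n = 3 each). Red points lie left of blue for most members, at 0 for SMARCE1 and BRD9, and among the blue for ARID2.

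H3K27ac calls differed between the arms at few member ends. The count of members with it was 37 and 36 in shCtrl and 37 and 36 in shSATB1, so the arms overlapped. Over all genes the shares were 41.6% and 40.5% in shCtrl and 41.9% and 38.2% in shSATB1, which also overlapped. It was lost, called in both shCtrl libraries and in neither shSATB1 library, at 1 of 36 members, MTA3 (2.18% of such genes). It was gained at 2 of 9 members, BPTF and EP400, where 0.884% of genes without H3K27ac in shCtrl gained it. Without shSATB1 replicate 1 the losses were CHD9, MTA3 and KAT2B, and without shSATB1 replicate 2 they were MTA3 and RBBP7. In lists of equal length, 15972 peaks each, H3K27ac was lost at 0 of 34 members (2.14% of such genes) and gained at 1 member, BPTF (0.701% of all genes).

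BPTF encodes the large subunit of NURF, which reads methylated histone H3 and works with an ISWI ATPase. H3K27ac peaks covered 0 and 0 bases of its windows in shCtrl and 1629 and 1237 in shSATB1, at percentiles of 37.0 and 30.3, all at the lower-coordinate end (67825503 on chromosome 17). CTCF was called there in all 6 libraries, at 93.9 to 95.8 in shCtrl and 84.7 to 89.9 in shSATB1. EP400, a remodeller that exchanges histone H2A variants, had 0 and 0 bases of H3K27ac in shCtrl and 1600 and 1427 in shSATB1. These EP400 peaks covered the whole printed promoter, but ranked at 0.218 and 25.9, so 1 of them was among the lowest called. The EP400 gain was not called with a 5 kb window, at equal list length or without the lowest 25% of each list. CTCF covered that promoter in all 6 libraries and Matrin 3 in the longer list.

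MTA3, a NuRD subunit known from B cells and epithelia, had 1681 and 2472 bases of H3K27ac in shCtrl and 0 and 0 in shSATB1. Its shCtrl peaks ranked at 7.89 and 9.24, near the bottom of both lists, and 1 of the 2 covered the printed promoter. CTCF stayed at MTA3 in all 6 libraries, and its end window also holds one of KCNG3. For BPTF, EP400 and MTA3 the exact permutation p was 0.33, the smallest that 2 against 2 allows (0.886 adjusted over 9119 genes by Benjamini-Hochberg). None of the 3 had SATB1 at an end in either list, and neither had SMARCE1 or BRD9.

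**Figure D4:**
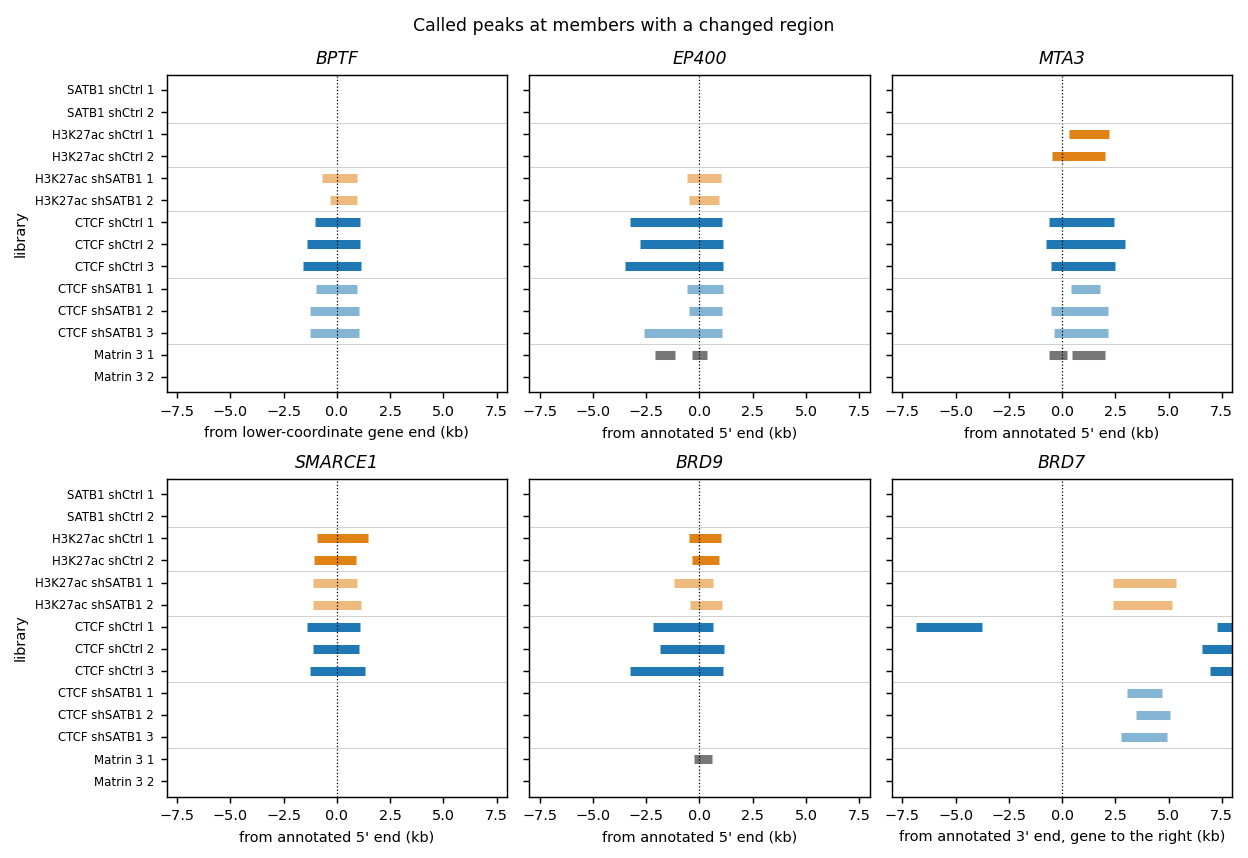
Called peaks (bars) of 14 libraries in rows within 8 kb of a gene end (x axis, kb; dotted line at the end) for 6 members with a changed region, coloured by target and lighter for shSATB1. H3K27ac bars appear only in shSATB1 at BPTF, EP400 and BRD7 and only in shCtrl at MTA3, CTCF bars are missing from shSATB1 at SMARCE1 and BRD9, and no SATB1 bar is present.

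The H3K27ac-covered length was lower without overlap of the arms at 13 of 46 members (14% of all genes) and higher at 5 (3.14%): CHD2, BPTF, SMARCA2, BRD9 and EP400. Without shCtrl replicate 2 these counts were 21 and 8, without shSATB1 replicate 1 the first was 25, and without shSATB1 replicate 2 the second was 9. Among 32 members with it in all 4 libraries it was lower in both shSATB1 libraries than in both shCtrl libraries at 10 (33.8% of such genes) and higher at 2, CHD2 and BRD9 (6.8%). The widest H3K27ac peaks at member ends belonged to HDAC3 and HDAC7. HDAC3, the deacetylase of the NCOR and SMRT corepressors, had 24.1 and 23.7 kb in shCtrl and 23.1 and 18.1 kb in shSATB1. HDAC7 had 20.9 and 22.9 kb in shCtrl and 11.6 and 4.96 kb in shSATB1. These are widths of the single widest peak that touches an end window, which also drop where a peak splits. The HDAC3 value belongs to a peak at the 3′ end window; at its 5′ end the H3K27ac peaks were 3176 and 2015 bases wide in shCtrl and 2497 and 2503 in shSATB1, where the arms overlapped. By covered length within the windows the arms overlapped at both genes: HDAC3 had 5222 and 3953 bases in shCtrl and 4352 and 3696 in shSATB1, and HDAC7 had 4001 and 4001 in shCtrl and 4001 and 3362 in shSATB1. At HDAC7, 4001 bases is the full length of the 5′ end window, so width outside it did not count. The overlap there therefore does not show that the peaks were equally wide. Their windows also hold ends of other genes, DIAPH1 and RELL2 at HDAC3 and SLC48A1 at HDAC7. CHD1, a remodeller of transcribed genes, followed with 10.7 and 12.0 kb in shCtrl and 9.88 and 11.1 kb in shSATB1, where the arms overlapped.

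Away from the ends, HDAC4 held the most SATB1 peaks of the members. This class IIa deacetylase gene spans 353 kb on chromosome 2 and held 15 SATB1 peaks shared by both lists and over 2 kb from both ends. Only 16 of 19974 genes, HDAC4 included, held as many, and among 3351 genes over 100 kb, 48 (HDAC4 included) had as many per length. A shared inside peak was present in 16 of 46 members (13.7% of all genes) and in 10 of 18 members over 100 kb (40.3% of such genes). HDAC4 was named after its values were seen. CHD7, ARID1A, ARID1B, HDAC7, MTA3, CREBBP and KAT2B had a shared SATB1 peak inside the gene and none at an end in both lists. The MTA3 peak, at chr2:42648881-42650089, ranked at 81.6 and 84.2 in the SATB1 lists. ARID1B, the alternative to ARID1A in SWI/SNF, had an inside peak at 68.9 and 61.7. The HDAC7 peak ranked at 7.94 and 12.6. In CHD2, which also had SATB1 at an end, an inside peak reached 92.0 and 88.3.

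The 15 peaks lay 61.9 to 236 kb from the HDAC4 5′ end. The highest, at chr2:239321429-239325675, ranked at 98.6 and 98.7. H3K27ac overlapped 14 of the 15 in all 4 libraries, and the longer Matrin 3 list overlapped all 15. CTCF overlapped 13 in every shCtrl library, 7 in all 6 libraries and 2 in no library. Over the whole gene CTCF peaks covered 87.0, 96.9 and 108 kb in shCtrl and 22.2, 32.1 and 43.6 kb in shSATB1. H3K27ac peaks covered 126 and 118 kb in shCtrl and 112 and 100.4 kb in shSATB1. The arms did not overlap for either target, but peaks of both targets also covered less of the whole genome in shSATB1, without overlap of the arms, as given above.

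**Figure D5:**
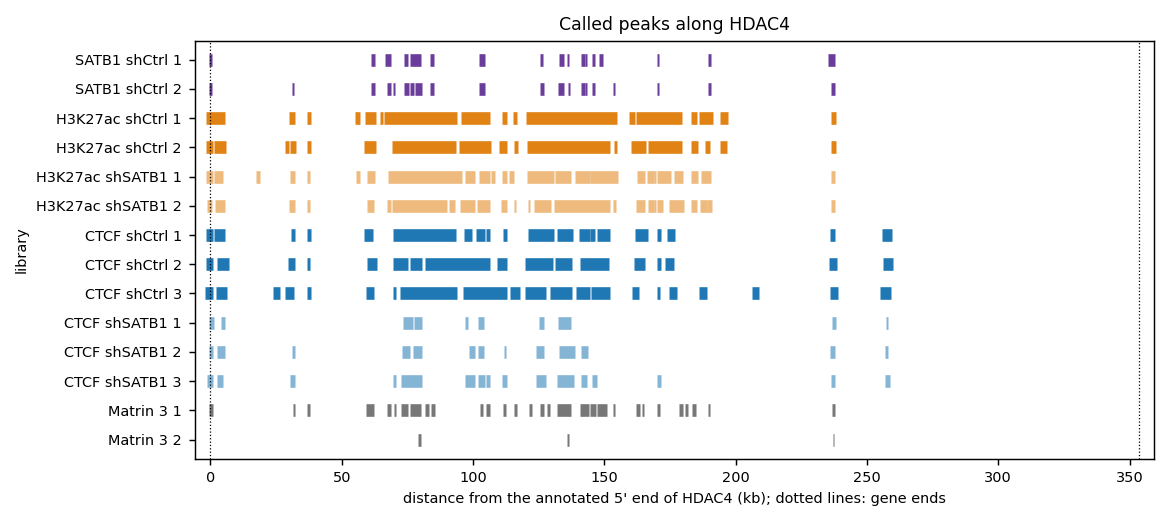
Called peaks (bars) of 14 libraries in rows along HDAC4, by distance from its annotated 5′ end (x axis, kb; dotted lines at the gene ends), coloured by target and lighter for shSATB1. The 15 shared SATB1 peaks lie 61.9 to 236 kb inside the gene, 14 of them at H3K27ac called in all 4 libraries, and CTCF bars are fewer and shorter in shSATB1.

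Peaks were merged into regions, and those over a member gene or within 2 kb of it were counted. CTCF regions were lost at 15 of 127 (22.7% of all regions) and gained at 1 of 127 (0.00879%). H3K27ac regions were lost at 5 of 102 (5.95%) and gained at 4 of 102 (2.62%). HDAC4 held 4 of the lost CTCF regions, at mean percentiles of 2.87 to 24.8 in shCtrl, of which 1 overlapped SATB1 in both lists. The others lay over or within 2 kb of ARID1A, HDAC1, SMARCD1, EP400, INO80, CHD9, CHD3, SMARCE1, BRD9, HDAC2 and ARID1B, 1 at each gene. Their mean percentile in shCtrl ran from 1.01 in EP400 to 54.5 in HDAC1. The CHD3 region overlapped SATB1 in both lists and the ARID1A region in 1. The CHD3 region, at chr17:7879794-7884406, lay before the annotated start of CHD3 and not in its body. The SMARCD1 region lay at its 3′ end, at 0.823, 1.10 and 2.89, the low end of the lists, while the high CTCF peak of SMARCD1 was called in all 6 libraries.

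The gained CTCF region lay in BRD7, a bromodomain subunit of PBAF, at chr16:50318737-50321005, 2.78 kb from the 3′ end. Only 3 CTCF regions of 34146 were gained genome-wide. It was called in no shCtrl library and at 19.1, 1.03 and 10.0 in shSATB1. A gained H3K27ac region covered the same place, chr16:50318341-50321303, with no call in shCtrl and 59.5 and 54.8 in shSATB1. The shared stretch was 2269 bases. No SATB1 peak lay over BRD7 in either list, and CTCF at its ends was called in all 6 libraries, at 78.5 to 82.7 in shCtrl and 66.0 to 71.6 in shSATB1.

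HDAC1, the deacetylase of NuRD and SIN3 complexes, had the opposite pattern at 1 place in its body. A CTCF region at chr1:32320887-32322963, 29.8 kb from the 5′ end, was called at 59.7, 41.6 and 62.1 in shCtrl and in no shSATB1 library. An H3K27ac region at chr1:32321337-32322982 was called at 35.4 and 63.3 in shCtrl and in no shSATB1 library. These overlapped by 1627 bases and held no SATB1 peak. Of 7747 lost CTCF regions in the genome, 168 (2.17%) overlapped a lost H3K27ac region. The ends of HDAC1 kept CTCF, H3K27ac and, in shCtrl, SATB1.

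SMARCA2 gained an H3K27ac region at chr9:2021698-2024108 that SATB1 overlapped in both control lists. It was called at 40.5 and 8.34 in shSATB1 and not in shCtrl, and it holds a further annotated start of SMARCA2, 6.6 kb from the 5′ end. The SATB1 peak there ranked at 65.7 and 73.8. SMARCA4, the other SWI/SNF ATPase, lost 2 H3K27ac regions in its body, 74.6 and 88.1 kb from the 5′ end, with no SATB1. Of the 9 changed H3K27ac regions of the members, the SMARCA2 region alone overlapped SATB1 in both lists.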

How the data were processed

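The deposited files are 14 peak lists. Per the submitters' processing notes, the authors called peaks, here 1 list per library, and each peak was deposited with its total and maximum signal, as whole numbers with no scaling recorded. Signal was used only to rank peaks within a list. The submitters' processing notes name SEACR, deepTools, SAMtools, Bowtie2 and Trim Galore and the build GRCh38, and MACS2 except for Matrin 3. Versions, filters and controls are not given in the sources used here.

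Of 273747 peaks, 405 (0.148%) outside chromosomes 1 to 22 and X were left out. Genes and promoters came from RefSeq GRCh38.p14. A gene counted as called where any peak touched a 2 kb window around either end by 1 bp or more. For regions, overlapping peaks of a target were merged across libraries, and losses and gains followed the rule used for genes. Members are described by counts beside all genes. Single genes were compared by two-sided exact permutation tests over libraries with Benjamini-Hochberg adjustment over all genes tested.

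The members, lists and rules were chosen with earlier results of these data known. Named were the 8 members with the highest SATB1 percentile, members with changed or partial calls or no peak, and others chosen after their values were seen. Peak calling at genes and covered length were checked on a deposited CTCF list with losses and gains planted at known genes. The agreement rule over libraries and the exact test were not part of that check. Python 3.11.15, numpy 2.4.6, pandas 2.3.3 and matplotlib 3.10.9 were used. Positions are 1-based. Alternatives were other windows, 5′ ends alone, the place of the maximum, lists without their lowest 25% of peaks or of equal length, leaving out each library, a replicate block and, added after seeing the data, members without a shared window.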

Additional observations from a re-analysis of the deposited data

How the results depend on the processing

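Counts of members with SATB1, CTCF in shCtrl or H3K27ac in shCtrl stayed within 1.5 times of the reported values under other windows, 5′ ends alone, the place of the maximum, stricter lists and lists of equal length. Counts of changed calls are small and moved. With a 5 kb window CTCF was lost at 1 member (BRD9, no longer SMARCE1), and H3K27ac was gained at BPTF and BRD7, no longer at EP400. By 5′ ends alone H3K27ac was gained at 1 (EP400). By the place of the maximum CTCF was gained at 1 (ARID1A). Without the lowest 25% of each list CTCF was lost at 3 (BRD9, HDAC2 and RBBP7, no longer SMARCE1), H3K27ac was lost at 0 and gained at 1 (BPTF), and its length was higher at 2 (CHD2 and BPTF) instead of 5. At equal length CTCF was lost at 0 and gained at 1 (INO80), and H3K27ac was lost at 0 and gained at 1 (BPTF). The SMARCE1 and BRD9 losses could not be called there, since the cut left neither gene with CTCF in every shCtrl library.

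Over the 26 members with no other gene end in their windows, an alternative chosen after seeing the data, the counts were SATB1 12, CTCF 24, H3K27ac 18, Matrin 3 in both lists 3, CTCF lost 1 (SMARCE1), H3K27ac lost 0, CTCF length lower 16 and H3K27ac length lower 6; the smaller number of genes lowers these by construction.

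Leaving out each library in turn gave 23 to 26 members with SATB1, 43 to 43 with CTCF, 36 to 37 with H3K27ac and 8 to 38 with Matrin 3 (38 without replicate 2). CTCF was lost at 2 to 4 (4 without shSATB1 replicate 3) and gained at 0 to 0; its length was lower at 32 to 37. H3K27ac was lost at 1 to 3 (3 without shSATB1 replicate 1, 2 without shSATB1 replicate 2) and gained at 2 to 3. Its length was lower at 16 to 25 instead of 13 (21 without shCtrl replicate 2, 25 without shSATB1 replicate 1) and higher at 7 to 9 (8 without shCtrl replicate 2, 9 without shSATB1 replicate 2). Each of these counts asks for agreement of all libraries. Leaving a library out relaxes the rule, so by construction the counts can only stay or rise. Shares of all genes are not given for them.

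Libraries of the same number showed little shared deviation (correlations of 0.0215, 0.0161 and 0.00468 for CTCF over 7577 genes and 0.0301 for H3K27ac over 6999). Between CTCF libraries of different number the correlations ran from -0.0276 to 0.0126. For H3K27ac, 2 libraries per arm allow only a single value, with either sign. Low correlations of covered length cannot exclude that the numbers pair the libraries. With the replicate number as a block, CTCF length was lower in every pair at 39 members, and H3K27ac length was lower at 19 and higher at 7. That rule is weaker than no overlap of the arms, so its counts cannot be smaller. The share of all genes under it is not given here, so these counts were not set against a background. Depth is unknown, so an uncalled peak was not shown to be absent.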

Other observations

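A further list of 64 chromatin-regulator genes outside the 46 was read from the same lists. SATB1 lay at an end of 29 (24.5% of all genes), CTCF in every shCtrl library at 57 (58%), and H3K27ac in both shCtrl libraries at 44 (38.8%). CTCF was lost at 6 of the 57 (14.8% of such genes): CHD5, PHF10, SIN3B, TBL1X, RUVBL1 and DMAP1. Neither CTCF nor H3K27ac was gained at any of the 64, and H3K27ac was lost at 0. The highest SATB1 peaks of this list were at KAT6B, an acetyltransferase (98.1 and 97.7), ACTL6A, an actin-like subunit of SWI/SNF and INO80 complexes (96.7 and 96.3), SIN3A, the scaffold of an HDAC1 complex (93.4 and 92.9), and DPF3, a SWI/SNF subunit (92.0 and 92.4). In the same lists CHD4 had 97.8 and 97.0 and RBBP4 95.1 and 93.4.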
